A study of Ictidomys tridecemlineatus with 15 samples.

Results

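The genes described here are 6 that the liver uses in fasting, namely Bdh1, Fgf21, Pdk4, Creb3l3, Ppara and Angptl4. Each was looked up by symbol among the 6324 transcription units of a global run-on sequencing (GRO-seq) count table from ground squirrel liver, and all 6 were found. Bdh1, Fgf21 and Pdk4 have a unit of their own. The other 3 lie in merged units, in which overlapping genes were counted together, so that their values are those of the unit. Ppara shares its unit with the gene model G23946 and Creb3l3 with G19489. Angptl4 is 1 of 5 names in its unit, beside Hnrnpm, Rab11b, March2 and G19311, and no part of those counts can be credited to Angptl4 itself.

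GRO-seq labels the RNA that engaged polymerases extend in isolated nuclei, here for 7 min at 30 °C. The reads thus show where engaged polymerases stand on genes, whatever RNA has built up in the cell. The animals were female 13-lined ground squirrels housed in the laboratory, with body temperature followed by implanted recorders, and no drug or engineered allele is named for them. Summer active (SA) animals were warm and not hibernating. The 4 winter states were interbout aroused (IBA, briefly rewarmed between torpor bouts), entering torpor (Ent), early torpor (ET) and late torpor (LT). There were 3 libraries of each state and 2 of LT, each from a different animal, and the ages were not given in the sources used here. Counts per library ranged from 3713883 to 8884763 with a median of 6356356.

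Peroxisome proliferator-activated receptor alpha, the product of Ppara, is a nuclear receptor that senses fatty acids and, paired with a retinoid X receptor, turns on genes for their oxidation in the fasted liver. When fatty acid oxidation outruns the citric acid cycle, liver mitochondria make ketone bodies from acetyl-CoA, first acetoacetate and then, through Bdh1, beta-hydroxybutyrate. Ground squirrels do not eat during hibernation and live from stored fat, and ketone bodies are a fuel that brain and heart can use.

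Defining genes of hepatocytes were transcribed in all libraries: 7 of the 8 hepatocyte markers had a unit, and their summed level ran from 4939 to 27097 CPM, the counts scaled to the size of each library. Of the 29 markers listed for other cell types of the liver, 6 had a unit. The 3 endothelial markers summed to between 124 and 241 CPM, and the stellate cell and lymphocyte markers had no unit. The hepatocyte sum was 16471 to 27097 CPM in SA and 19187 to 26999 in IBA. It was 11410 to 13990 in Ent, 4939 to 9588 in ET and 6487 to 10332 in LT. Of the 8 hepatocyte units, 4 (Ttr, Hnf4a and both transferrin units) were higher in IBA than in LT at the threshold used here and 0 were lower. Of all units, 7.73% were higher and 9.69% lower. The part of this difference in the results below was not tested. Fewer cells of a type and less transcription per cell cannot be told apart in whole tissue.

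Animals were collected in 3 seasons. All ET animals came from a season of their own, the LT animals from the first and the IBA animals from the third. ET therefore cannot be told apart from its season. LT and IBA share no season either, so LT cannot be compared with IBA within 1 season. The fit with season as a covariate links LT and IBA only through the SA and Ent animals. That fit takes season to act alike in every state. SA and Ent animals came from both the first and the third season. Libraries in these groups therefore allow some comparisons within a season, which are given where they bear on a result.

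Differences were tested with edgeR's quasi-likelihood test, fitted to all units and libraries, and Benjamini-Hochberg adjustment covered every unit of the table. Log2 fold changes are given with their standard error (SE). CPM are shares of each library. The study states that scaling by library size hides changes in overall transcription between states. Levels and fold changes here are therefore relative to the rest of the library. The study also proposes that in torpor polymerases neither start nor terminate but move on slowly, past gene ends. Signal in ET and LT can then include polymerases held on a gene or arriving from upstream. How much of it does so was not tested here. Values written with ± are the mean and SD over the libraries of a state (n = 3, or n = 2 in LT). Statements that the libraries of a state lie above or below those of another are descriptive. With so few libraries such separation can arise by chance. Its share over all units was counted only for a state against all the rest. A unit is called where the adjusted p was at or under 0.001, the threshold the study used, and a second threshold of 0.05 is given beside it. Among the 5 states, 2 of the 6 members were called, the Bdh1 unit and the Angptl4 unit, against 25.5% of all units. At 0.05, 5 of the 6 were past the threshold, against 62% of all units, and the exception was the Ppara unit. Neither share sets the 6 genes apart from the rest of the table.

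**Figure D1:**
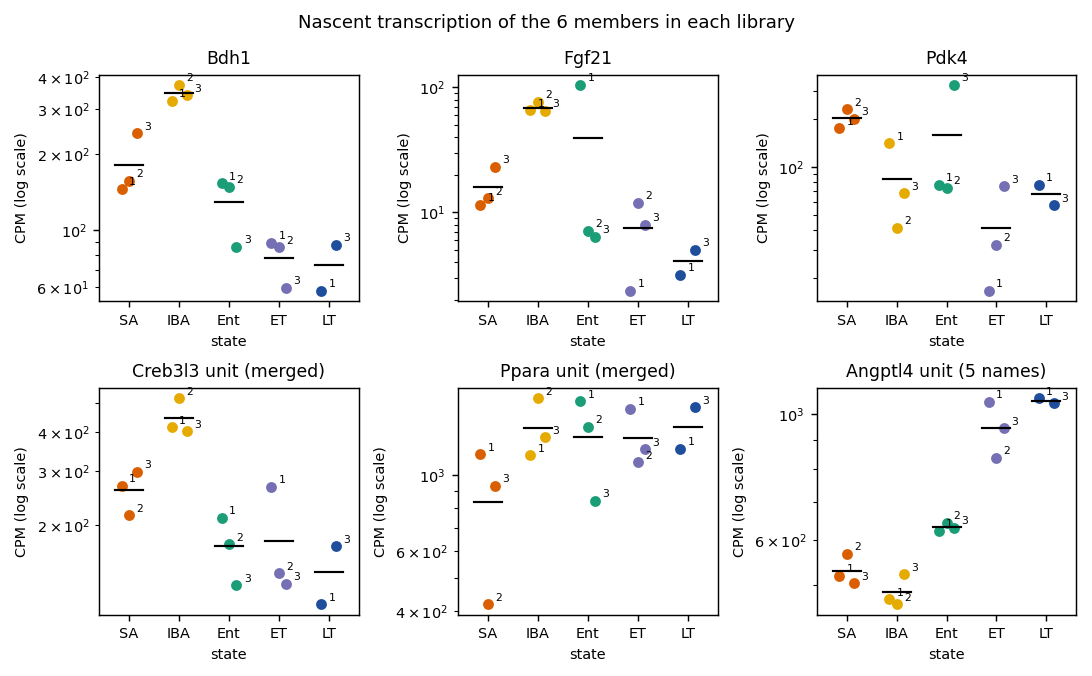
CPM of each member (log scale) in every library of the 5 states, with the replicate number beside each point and a bar at the mean of the state. All 3 IBA libraries lie above the 11 others for Bdh1 and for the Creb3l3 unit, the Ent libraries of Fgf21 and Pdk4 are spread widely, and the Angptl4 unit is highest in ET and LT.

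Bdh1 encodes the mitochondrial enzyme that interconverts acetoacetate and beta-hydroxybutyrate. In the HiC_Itri_2 genome its unit of 47477 nt lies on Itri7 (minus strand, 143522299 to 143569775). The level of Bdh1 was 146, 157 and 241 CPM in the 3 SA libraries and 323, 373 and 339 CPM in those of IBA. In Ent it was 153, 148 and 86.1 CPM. It was 89.2, 86.0 and 59.5 CPM in ET and 57.9 and 87.9 CPM in LT. As a share of the library, transcription of Bdh1 was thus highest in the rewarmed winter animals, where each library was above each of the other 11. It was lowest in the cold animals. The SA and Ent libraries overlapped, as did those of ET, LT and the lowest Ent library.

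Between LT and IBA Bdh1 rose by 2.24 in log2 (SE 0.31, adjusted p = 0.00013), a 4.73-fold difference between 72.9 ± 21.2 and 345 ± 25.6 CPM. Of the 6 members, 2 were called in this comparison, 1 in each direction. Over all units 17.4% were called, 7.73% higher and 9.69% lower in IBA. Past 0.05 were 4 members, 3 higher and 1 lower, against 49.8% of all units (25% and 24.8%). Of the units called, 44.4% were higher in IBA, a share that was 28.5% with libraries scaled to their uniquely mapped reads, which moved the median of all units by -0.18. With that scaling Bdh1 stayed called, with a log2 fold change of 2.05. Without LT replicate 1 the adjusted p of Bdh1 was 0.0038, and with season as a covariate and ET left out it was 0.0037, with a log2 fold change of 2.38.

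From SA to IBA the log2 fold change of Bdh1 was 0.93 (SE 0.26, adjusted p = 0.058), and 0.79 within the third season (adjusted p = 0.081). The adjusted p of Bdh1 was past 0.05 with DESeq2 (0.013), upper-quartile scaling (0.045), scaling to uniquely mapped reads (0.049) and limma-voom (0.049). It was not past 0.05 with the other scalings. None of the 6 members was called in this comparison with edgeR, against 0.0158% of all units. In the main fit 0 were past 0.05, against 5.22%. At an unadjusted p of 0.05 or less edgeR gave 3 members, against 1393 of the 6324 units, and DESeq2 called 0 of the 5 it could test. From IBA to Ent the log2 fold change of Bdh1 was -1.42 (SE 0.26, adjusted p = 0.0055), past 0.05 and not past 0.001. Within the third season, where 3 IBA animals can be set against 1 Ent animal, it was -2.002 (adjusted p = 0.011). That Ent animal is the lowest of Ent for Bdh1, and the spread in fits within a season comes from all libraries, so that a lone animal is assumed to vary like the others. From SA to LT it was -1.31 (SE 0.30, adjusted p = 0.0034). From Ent to ET it was -0.72 (SE 0.26, adjusted p = 0.054), and from ET to LT -0.10 (SE 0.29, adjusted p = 0.98).

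Creb3l3 encodes CREBH, a transcription factor of the hepatocyte that is held in the endoplasmic reticulum until it is cleaved and that acts with the receptor PPAR alpha on Fgf21 and other fasting genes. The unit it shares with G19489 spans 41141 nt on the minus strand of Itri2 from 215432626 to 215473766. The Creb3l3 unit had 268, 215 and 298 CPM in SA and 416, 517 and 403 CPM in IBA. It had 211, 173 and 127 CPM in Ent. The values were 266, 139 and 129 CPM in ET and 111 and 170 CPM in LT. As for Bdh1, every IBA library was above the 11 others, and the cold states and Ent overlapped. A pattern with every IBA library above all the rest was shared by 298 of the 6324 units (4.71%).

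The adjusted p of the Creb3l3 unit among the 5 states was 0.0016, just outside the threshold. Its log2 fold change from LT to IBA was 1.67 (SE 0.33, adjusted p = 0.0013), and from IBA to Ent -1.39 (SE 0.28, adjusted p = 0.0084). From SA to IBA it was 0.77 (SE 0.28, adjusted p = 0.13). ET replicate 1, at 266 CPM, lay among the SA libraries. Without it the unit passed the threshold among the 5 states (adjusted p = 0.00023) and from LT to IBA (0.00028), and DESeq2 called it in both. The unit overlaps Map2k2, which is listed on the opposite strand. Map2k2 had 94.7 CPM in SA, 111 in IBA, 66.5 in Ent, 40.2 in ET and 34.4 in LT, with a log2 fold change of 1.69 from LT to IBA. The strand setting of the counting was not given in the sources used here, so reads of the overlap could not be assigned further.

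Over the 14 libraries, the log2 CPM of the Creb3l3 unit and of Bdh1 had a Pearson r of 0.92. Bdh1 ranked 2nd among all units in its likeness to the Creb3l3 unit, after Bahcc1 (r = 0.94) and before the unit of the gluconeogenic genes Fbp1 and Fbp2 (r = 0.91). The units most like Bdh1 were CUNH11orf80, Cgnl1 and Vti1a, with r between 0.956 and 0.96, and the Creb3l3 unit ranked 32nd. These correlations are a description, since all libraries share their states.

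Fgf21 encodes fibroblast growth factor 21, a hormone that the fasted liver secretes and that acts on cells that carry the co-receptor beta-klotho. Its unit is short, 6251 nt on the plus strand of Itri16 from 21209193 to 21215443, and held between 16 and 794 reads per library. The level of Fgf21 was 11.6, 12.9 and 23.3 CPM in SA and 65.4, 76.5 and 65.0 CPM in IBA. In Ent it was 105, 7.11 and 6.37 CPM. It was 2.36, 12.0 and 7.98 CPM in ET and 3.17 and 5.01 CPM in LT. Every IBA library was above every SA, ET and LT library, and LT lay below SA. A single entering animal, Ent replicate 1, had the highest level of all, while the other two Ent libraries were among the low ones.

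The ratio of 16.4 between the highest and lowest Ent library of Fgf21 was exceeded by 2 of the 6318 units with at least 10 reads in each Ent library, where the median ratio was 1.31. One of them, chosen after its value was seen, is the merged unit G8111:G8138:G8137 (ratio 29.4). In the IBA libraries, by contrast, Fgf21 differed by a ratio of 1.18, near the median of 1.22 over all units. Ent replicates 1 and 2 belong to the same collection season, and what sets them apart was not tested.

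Among the 5 states Fgf21 had an adjusted p of 0.015. Its log2 fold change from LT to IBA was 4.07 (SE 1.16, adjusted p = 0.012), a 16.8-fold difference between 4.09 ± 1.30 and 68.9 ± 6.55 CPM. From SA to IBA the log2 fold change was 2.09 (SE 0.88, adjusted p = 0.18). The error comes from 1 estimate of the spread over all libraries, Ent included. Without Ent replicate 1 the adjusted p of Fgf21 was 0.0001 among the 5 states and 0.0002 from LT to IBA, both past the threshold, with a log2 fold change of 4.07. Without LT replicate 1 or 3 the adjusted p from LT to IBA was 0.09 or 0.06, not past 0.05, with log2 fold changes of 3.78 and 4.43. With season as a covariate and ET left out the value was 5.26 (adjusted p = 0.035). DESeq2 gave no p for Fgf21 with all libraries in.

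The comparisons of Fgf21 with Ent rest on that animal. From Ent to ET the log2 fold change was -2.43 (SE 0.91, adjusted p = 0.063), and without Ent replicate 1 it was 0.12 (adjusted p = 0.9). From Ent to LT it was -3.27 (adjusted p = 0.048) and without Ent replicate 1 it was -0.72 (adjusted p = 0.42). From IBA to Ent the log2 fold change was -0.80 (SE 0.83, adjusted p = 0.54) with overlapping groups, and DESeq2 also gave -0.80. It was -1.93 with limma-voom (adjusted p = 0.083) and -1.90 with season as a covariate and ET left out (adjusted p = 0.40). Within the third season, where Ent replicate 3 is the only Ent animal, it was -3.43. The units most like Fgf21 over the 14 libraries were Lamb3 (r = 0.91), the unit of Zbtb5 (0.89) and Elp3 (0.89).

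Pdk4 encodes pyruvate dehydrogenase kinase 4, which switches off the pyruvate dehydrogenase complex and so spares glucose when fat is burned. Its unit spans 19689 nt on the minus strand of Itri2 from 34142086 to 34161774. The level of Pdk4 was 175, 230 and 201 CPM in SA and 141, 41.2 and 67.9 CPM in IBA. In Ent it was 76.8, 73.5 and 328 CPM. It was 16.5, 32.2 and 75.3 CPM in ET and 76.6 and 57.1 CPM in LT. Pdk4 was therefore not highest in IBA: the SA libraries were above all IBA, ET and LT libraries, and 1 Ent library, replicate 3, was above them all.

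Pdk4 varied about as much as the median unit among the SA animals, more than most units in LT and widely within the other states. The ratio of highest to lowest library was 1.31 in SA, where the median over all units was 1.38. In LT it was 1.34, wider than for 79.5% of units, where the median was 1.16 over 2 libraries. The ratio was 3.42 in IBA, 4.47 in Ent and 4.57 in ET, each wider than for at least 99% of the units with 10 reads or more in every library of the state. The animals at the top differed from those of Fgf21. In Ent, replicate 1 had the highest Fgf21 and 76.8 CPM of Pdk4, and replicate 3 the highest Pdk4 and 6.37 CPM of Fgf21.

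No comparison of Pdk4 was called with edgeR. Among the 5 states the adjusted p was 0.041, and it ranged from 0.014 to 0.099 with 1 library left out. From SA to IBA the log2 fold change was -1.29 (SE 0.64, adjusted p = 0.26), and from SA to LT it was -1.59 (SE 0.74, adjusted p = 0.091). Within the third season the value from SA to IBA was -1.38 (adjusted p = 0.17). From Ent to ET it was -1.95 (SE 0.65, adjusted p = 0.04), and without Ent replicate 3 it was -0.86 (adjusted p = 0.27). The units most like Pdk4 were those of Man1a1 (r = 0.84), LIPA_like (0.84) and DDI2 (0.80). Its r with Bdh1 was 0.15 and with Fgf21 0.14.

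The unit that holds Ppara itself, on Itri4 (minus strand, 3646480 to 3725145), is 78666 nt long. The Ppara unit had 1151, 418 and 931 CPM in SA and 1143, 1679 and 1289 CPM in IBA. It had 1644, 1384 and 839 CPM in Ent. The values were 1563, 1089 and 1190 CPM in ET and 1191 and 1580 CPM in LT. The 4 winter states overlapped, with means between 1281 and 1385 CPM, and the mean of SA was 833 CPM, with SA replicate 2 the lowest of all libraries. The units most like it were G9551 (r = 0.83), that of Slc25a13 (0.82) and that of Ppp6r3 and Lrp5 (0.81).

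The adjusted p of the Ppara unit among the 5 states was 0.32. In the main fit the largest of its tested log2 fold changes was 0.73 from SA to LT (SE 0.37, adjusted p = 0.12), and from SA to IBA it was 0.72 (SE 0.34, adjusted p = 0.24). Without SA replicate 2 the latter was 0.40 (adjusted p = 0.46). With season as a covariate and ET left out, the value was 1.03 from SA to IBA (adjusted p = 0.088) and 0.28 from SA to LT (adjusted p = 0.58). Within 1 season these values were 1.02 and 0.27. From LT to IBA the log2 fold change was -0.02 (SE 0.38, adjusted p = 0.97). The unit overlaps Cdpf1, listed on the opposite strand. Downstream on the same strand, 6.93 kb away, lies Ttc38, which was called among the 5 states (adjusted p = 0.00014) with 19.9 CPM in SA, 16.4 in IBA, 42.4 in Ent, 98.5 in ET and 61.2 in LT.

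Angptl4 encodes a secreted inhibitor of lipoprotein lipase that PPAR alpha induces in fasting, but its unit spans 135997 nt on the minus strand of Itri2 from 212509563 to 212645559 and 4 further names. Among them, Hnrnpm encodes a splicing regulator and Rab11b a GTPase of recycling endosomes. The Angptl4 unit had 518, 567 and 503 CPM in SA and 471, 462 and 521 CPM in IBA. It had 623, 644 and 630 CPM in Ent. The values were 1053, 838 and 945 CPM in ET and 1068 and 1046 CPM in LT. SA and IBA overlapped, each Ent library was above them, and each ET and LT library was above Ent, so that the state means ran in the reverse order of those of Bdh1.

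From LT to IBA the Angptl4 unit fell by 1.13 in log2 (SE 0.13, adjusted p = 4.5e-05), a 2.18-fold difference. With season as a covariate and ET left out the value was -1.19, no longer past the threshold (adjusted p = 0.0016). From SA to LT the unit was higher in LT by 0.998 on that scale (SE 0.13, adjusted p = 0.00011). It was the only member edgeR called from SA to LT (DESeq2 called Bdh1 too, adjusted p = 0.00012), where 15.7% of all units were, 8.21% higher and 7.54% lower in LT, and 52.1% of the calls were higher (68.8% with libraries scaled to uniquely mapped reads, which moved the median of all units by 0.19). With that scaling the log2 fold change of the unit was 1.19. Past 0.05 from SA to LT were 3 members, this unit above and Bdh1 and the Creb3l3 unit below their SA level, against 49.2% of all units (23.7% higher and 25.4% lower). With only the SA and LT libraries in the fit the adjusted p was 0.0085, and without LT replicate 1 or 3 it was 0.0019 or 0.0013. Within the first season, 1 SA animal against 2 of LT, the log2 fold change was 1.03 (adjusted p = 0.0043, with the spread of the lone animal taken from the other groups).

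With edgeR no single step of the entry into torpor was called for the Angptl4 unit, while DESeq2 called it from Ent to ET (log2 fold change 0.60, adjusted p = 4.2e-07). From IBA to Ent its log2 fold change was 0.38 (SE 0.12, adjusted p = 0.049), from Ent to ET 0.58 (SE 0.12, adjusted p = 0.0045) and from ET to LT 0.16 (SE 0.13, adjusted p = 0.88). The units most like it over the 14 libraries were Ewsr1 (r = 0.99), the unit of Nono (0.99) and Nol9 (0.99), of which Ewsr1 and Nono encode RNA-binding proteins. Its r with Bdh1 was -0.88, and with the Ppara unit 0.23.

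**Figure D2:**
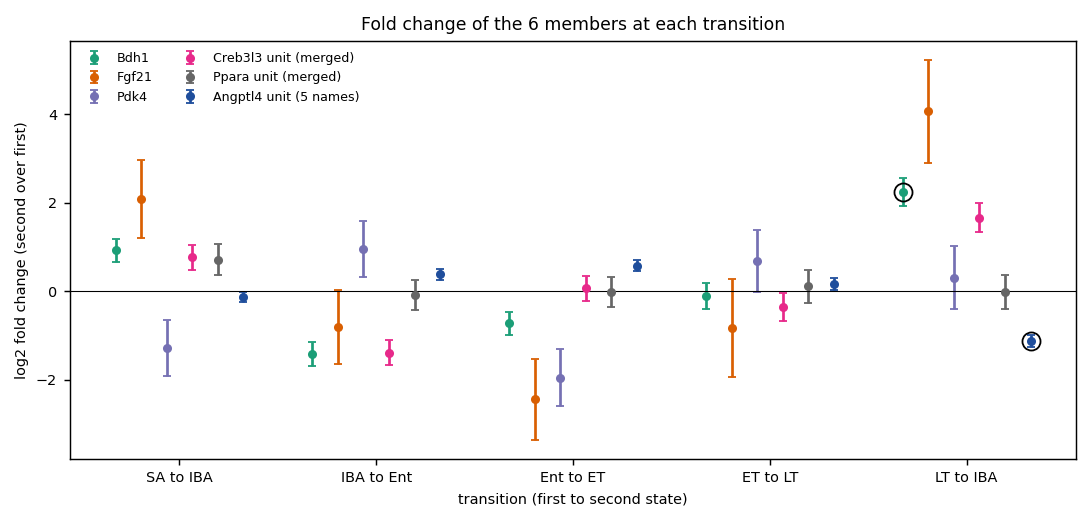
Log2 fold change of each member at the 5 sequential transitions, as points with bars of 1 SE, where a positive value means higher in the second state. Circled points were called, Bdh1 (2.24) and the Angptl4 unit (-1.13) from LT to IBA, and Fgf21 has the widest bars.

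**Figure D3:**
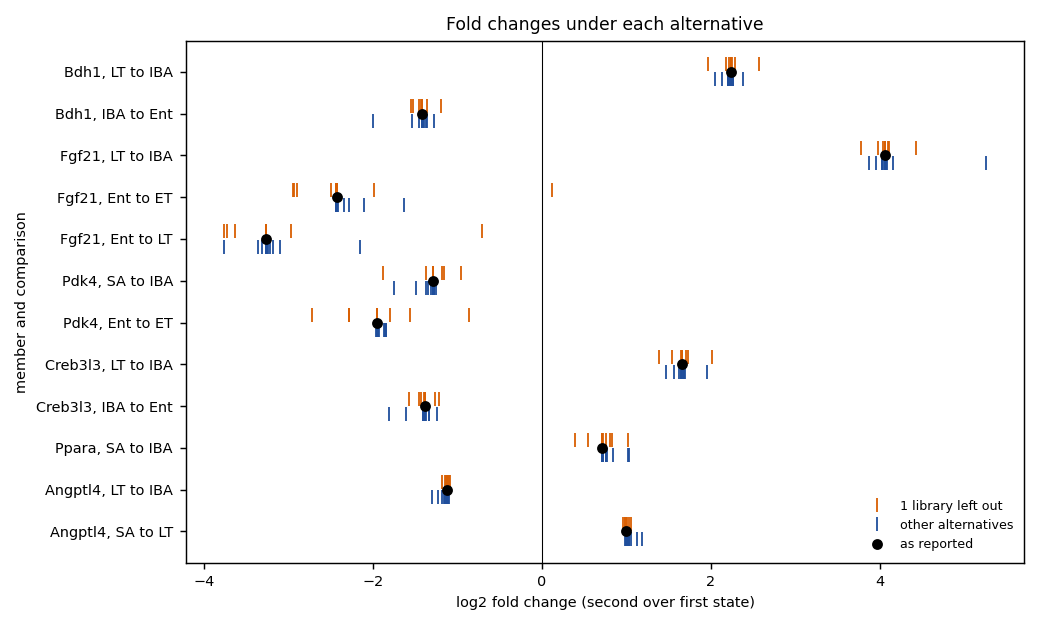
Log2 fold changes of members in selected comparisons as reported (black points), with each library left out (orange ticks) and under the other alternatives (blue ticks). The value of Fgf21 from Ent to ET runs from -2.94 to 0.12, while those of Bdh1 and the Angptl4 unit from LT to IBA keep their sign.

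For the steps between the other states the counts were as follows. From IBA to Ent none was called with edgeR, against 0.0316% of all units, and 3 were past 0.05, against 16.1%. These were Bdh1 and the Creb3l3 unit, lower in Ent as 7.34% of all units were, and the Angptl4 unit, higher as 8.76% were. At an unadjusted p of 0.05 or less there were also 3, against 2056 of the 6324 units. From Ent to ET none was called with edgeR, against 2.21% of all units, and 2 were past 0.05, Pdk4 and the Angptl4 unit, against 28.8%. At an unadjusted p of 0.05 or less there were 4, against 2562 of the 6324 units. From ET to LT none was called with edgeR, where 0% of all units were called and 0.269% were past 0.05. None had an unadjusted p at or under 0.05, against 550 of the 6324 units, and DESeq2 called 0 of the 5 it could test. From Ent to LT none was called with edgeR, against 2.29%, and 2 were past 0.05, against 27%. An unadjusted p of 0.05 or less was reached by 3, against 2519 of the 6324 units. DESeq2 called 2 members from IBA to Ent and 1 each from Ent to ET and from Ent to LT. Shares over all units were not counted with DESeq2, so its counts here and below have no background.

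Levels of different genes can be compared only per length. The Ppara unit had the highest level per length in every state, from 10.6 ± 4.78 CPM per kb in SA to 17.6 ± 3.50 in LT. In SA, Pdk4 had a similar level, 10.3 ± 1.40 CPM per kb, and Fgf21 was lowest at 2.55 ± 1.03. In IBA, Fgf21 and the Creb3l3 unit reached 11.0 ± 1.05 and 10.8 ± 1.52 CPM per kb, above Bdh1 at 7.26 ± 0.54 and Pdk4 at 4.23 ± 2.62. In LT, Fgf21 was again lowest, at 0.65 ± 0.21 CPM per kb, and Bdh1 was at 1.54 ± 0.45. Merged units average over several genes, so their level per length is not that of the member.

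The neighbours of the members on the chromosome were looked at because polymerases can run past the end of a gene into the next. The nearest upstream unit of Bdh1 was Acap2, 190 kb away on the other strand, and that of Fgf21 was Mamstr, 85.0 kb away on the other strand. Upstream of Pdk4 the nearest was the unit of Slc25a13, 470 kb away on the same strand, which is also among the 3 units most like the Ppara unit. The nearest upstream unit of the Angptl4 unit was on its own strand, Rps28 at 26.7 kb, with 20.0 CPM in SA and 27.2 in LT (adjusted p among the 5 states 0.055). The Creb3l3 unit had that of Eef2 94.0 kb upstream on the other strand, and the Ppara unit had G23921 8.04 kb upstream on the other strand. Downstream, the nearest units were Dlg1 with Meltf for Bdh1 (137 kb), Bcat2 with Plekha4 for Fgf21 (31995 nt), Pon2 for Pdk4 (142 kb), Hdgfl2 for the Creb3l3 unit (189 kb) and Znf317 for the Angptl4 unit (809 kb). Of the units named here as neighbours, Ttc38 and Hdgfl2 (adjusted p = 8.3e-05) were called among the 5 states, and the overlapping Map2k2 (0.00067) was too.

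The rest of the pathway was followed in 8 lists of 120 symbols in all, which had 81 units beside those of the members, 27 of them merged. Of the 81, 16 were called among the 5 states (19.8%, against 25.5% of all units) and 51 were past 0.05 (63%, against 62%). From LT to IBA 6 of them were called higher in IBA and 5 lower, against 7.73% and 9.69% of all units. Under scaling to uniquely mapped reads these counts were 3 and 10, and of all the calls 28.5% were then higher. The lists as a whole thus held no larger share of called units than the table. The counts called in each list below stand against the same 25.5% of all units.

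Ketone body synthesis was followed in 4 units beside Bdh1, none of which edgeR called among the 5 states. An adjusted p under 0.05 was reached by 3, as was an unadjusted one, and DESeq2 called 3. Slc16a7, a transporter of monocarboxylates including ketone bodies, had 302 ± 69.3 CPM in SA and 783 ± 63.6 in IBA, with a log2 fold change of 1.38 (SE 0.21, adjusted p = 0.0038). Acat1, whose enzyme condenses acetyl-CoA, had 60.4 CPM in SA, 84.0 in IBA, 135 in Ent, 122 in ET and 138 in LT (adjusted p among the 5 states 0.015).

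Of 18 units of mitochondrial fatty acid oxidation, 2 were called among the 5 states, Eci2 with its highest mean in IBA and Acadl in ET. Eci2, an isomerase for unsaturated fatty acids, had 387 ± 73.4 CPM in SA, 582 ± 51.9 in IBA, 290 ± 69.1 in Ent, 137 ± 47.0 in ET and 96.5 ± 27.5 in LT. Eci2 rose from LT to IBA by 2.59 in log2 (SE 0.32, adjusted p = 5.1e-05). Acadl, a dehydrogenase for long chains, had 124 CPM in SA and 171, 190, 240 and 193 CPM in IBA, Ent, ET and LT. Hadh and Etfa were just outside the threshold, at adjusted p of 0.0014 and 0.0016. The unit of Cpt1a and Tesmin, the first of which admits fatty acids into mitochondria, had 519 CPM in SA, 813 in IBA, 1171 in Ent, 1550 in ET and 1845 in LT, and it rose from SA to LT by 1.83 in log2 (SE 0.33, adjusted p = 0.00073).

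Of 8 units of peroxisomal and microsomal targets of PPAR alpha, 3 were called among the 5 states. Crot, which hands shortened fatty acids from peroxisomes to mitochondria, had 143 ± 58.4 CPM in SA, 615 ± 71.2 in IBA, 284 ± 82.0 in Ent, 152 ± 62.8 in ET and 113 ± 24.4 in LT. Crot rose from LT to IBA by 2.45 in log2 (SE 0.42, adjusted p = 0.00052), and from SA to IBA the value was 2.11 (SE 0.36, adjusted p = 0.0057). The unit of Aldh3a2, a fatty aldehyde dehydrogenase, rose from LT to IBA as well, by 1.94 in log2 (SE 0.35, adjusted p = 0.00074). Pex11a was highest in Ent, at 46.1 CPM, with an adjusted p of 0.0032.

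Of 13 units for lipid handling, 3 were called among the 5 states. Fabp1, the fatty acid binding protein of liver, had 155 CPM in SA, 262 in IBA, 150 in Ent, 31.2 in ET and 23.9 in LT, and from LT to IBA it rose by 3.45 in log2 (SE 0.59, adjusted p = 0.00048). Slc27a4, a fatty acid transporter, went from 58.1 CPM in SA to 27.6 in LT. The merged unit of Pnpla2, the triglyceride lipase, was highest in ET at 375 CPM, and it also holds the ribosomal gene Rplp2. G0s2, an inhibitor of that lipase, had 209, 217, 315, 41.0 and 15.4 CPM in the 5 states from SA to LT, with an adjusted p of 0.0013.

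Of 20 units of partners and regulators of PPAR alpha, 1 was called among the 5 states. It was Hnf4a, which maintains hepatocyte identity and is also among the hepatocyte markers, with 922 CPM in SA, 819 in IBA, 797 in Ent, 423 in ET and 387 in LT. Rxra, the partner receptor, had 252 CPM in SA and 569 in LT (adjusted p among the 5 states 0.015). Foxo1, a factor that insulin signalling restrains, had 614 CPM in SA, 463 in IBA and 1559 in LT (adjusted p = 0.0018). The merged unit of Klf15, a glucocorticoid-responsive factor, had 660 CPM in SA, 173 in IBA, 484 in Ent, 893 in ET and 918 in LT. The Klf15 unit fell from LT to IBA by 2.41 in log2 (SE 0.43, adjusted p = 0.00063).

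None of the 3 FGF21 receptor units was called among the 5 states with edgeR. At 0.05 there were 2, adjusted or not, and DESeq2 called 2. Klb, which encodes beta-klotho, had 24.7 ± 14.4 CPM in SA, 47.1 ± 18.1 in IBA, 22.3 ± 10.5 in Ent, 8.12 ± 3.22 in ET and 7.74 ± 2.18 in LT. Its log2 fold change from LT to IBA was 2.60 (SE 0.57, adjusted p = 0.0025). Fgfr3 had 54.3 CPM in IBA and 168 in LT, with a value of -1.63 from LT to IBA (SE 0.34, adjusted p = 0.0017). Fgfr2 had an adjusted p of 0.22 among the 5 states, and Fgfr1 and Fgfr4 had no unit.

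Beside Pdk4, 10 units were followed for the pyruvate dehydrogenase complex, its regulators and the mitochondrial pyruvate carrier (Mpc1 and Mpc2). Of these, 4 were called among the 5 states. Of the 10, 4 had their highest mean in ET and 5, with both carrier genes among them, in LT, against 20.2% and 21.9% of all units. Pdhb, a subunit of the complex, had 37.9 CPM in SA, 30.6 in IBA, 51.9 in Ent, 101 in ET and 88.4 in LT. Pdhx had 73.3, 76.4, 105, 150 and 143 CPM in the same order. The kinase gene Pdk1 had 34.4, 36.4, 54.7, 78.0 and 78.0 CPM, and the phosphatase gene Pdp2 37.6, 25.7, 65.1, 76.2 and 62.0 CPM. Between LT and IBA 3 of the 10 were called lower and 0 higher in IBA, against 9.69% and 7.73% of all units: Pdhb by 1.53 (SE 0.22, adjusted p = 0.00017), Pdhx by 0.91 (0.15, 0.0004) and Pdk1 by 1.10 (0.20, 0.00074) on the log2 scale. The kinase gene Pdk2 had 180 CPM in SA and 363 in LT, with an adjusted p of 0.025 among the 5 states. From SA to LT Pdk1 rose by 1.17 (SE 0.20, adjusted p = 0.00053), where the value of Pdk4 was -1.59.

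Of 5 relatives of Angptl4 and Creb3l3, 3 were called among the 5 states. Angptl8, induced by feeding, had 531 ± 253 CPM in SA, 113 ± 104 in IBA and 36.2 ± 8.05 in LT, with an adjusted p of 0.002. Creb3l2 had 342 CPM in SA, 273 in IBA, 151 in Ent, 112 in ET and 136 in LT. Mbtps1, the protease that cleaves CREBH and other factors, went the other way from Creb3l2, and from LT to IBA it fell by 0.97 in log2 (SE 0.17, adjusted p = 0.00055).

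**Figure D4:**
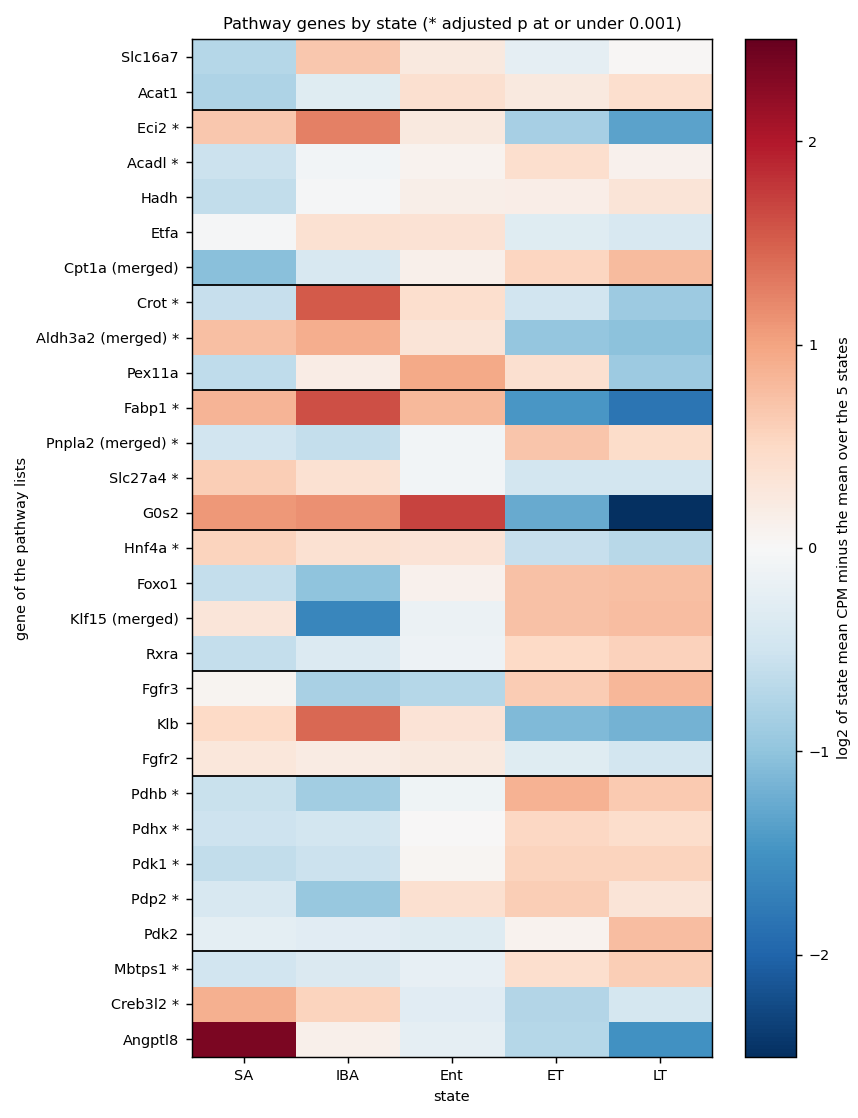
State means of the named pathway genes as log2 CPM minus their mean over the 5 states, from blue (low) to red (high), with lines between lists and asterisks at genes called among the 5 states. Crot, Fabp1 and Klb are highest in IBA, Pdhb, Pdhx and Pdk1 in the cold states, the Klf15 unit is lowest in IBA, and Angptl8 is highest in SA.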

How the data were processed

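The analysed GRO-seq libraries are from frozen liver of 14 animals, and LT replicate 2, which the authors removed, was not analysed here. The authors trimmed the reads with cutadapt, aligned them to the HiC_Itri_2 genome with BWA, extended gene models downstream with fstitch, merged overlapping genes, left out the first 500 nt of each unit and counted unique reads with featureCounts. The deposited values are these raw counts per unit, without normalization, and 0 columns were left unused.

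Counts were normalized by TMM and tested with edgeR 4.0.16 under R 4.3.3, in a quasi-likelihood model of the 5 states with no unit filtered out. Comparisons were made among the 5 states and for 7 pairs, with Benjamini-Hochberg adjustment over 6324 units. CPM used TMM library sizes, and log2 CPM a prior count of 2. Alternatives included DESeq2 1.42.0, limma-voom (limma 3.58.1), other scalings, season, and each library left out. Steps were tested on simulated data. The tables and plots used Python 3.11.15, pandas 2.3.3 and matplotlib 3.10.9.

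The members and gene lists were chosen with earlier results of these data known. Named beside the members are the 3 units most like each, its nearest neighbours, up to 4 genes per list with the lowest adjusted p among the 5 states, and Cpt1a, Rxra, Klb and Pdk2. Some genes that this rule names are not reported here. Replicate numbers name different animals and pair nothing. Deviations from the state means had a median correlation of 0.034 between libraries with the same number and -0.008 between others. Collection seasons come from the study's metadata. The p-values measure the spread between these animals.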

Additional observations from a re-analysis of the deposited data

How the results depend on the processing

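The number of members called among the 5 states was 2 and stayed at 2 or 3 except in units named for 1 gene (1, with 3 members in the fit), with season as a covariate and ET left out (0) and at an adjusted p of 0.05 (5). From LT to IBA it was 2, and these settings gave 1, 0 and 4. From SA to LT it was 1. There it was 0 in units named for 1 gene, with only the 2 states compared, with season as a covariate and within 1 season, 2 with DESeq2 and 3 at 0.05. At 0.05 and with DESeq2 it was 3 and 2 from IBA to Ent, 2 and 1 from Ent to ET, and 2 and 1 from Ent to LT, in place of 0. With 1 library left out the ranges were 2 to 3 among the 5 states, 1 to 3 from LT to IBA and 0 to 1 from SA to LT. A call was gained without Ent replicate 1 (Fgf21) or ET replicate 1 (the Creb3l3 unit) and lost without LT replicate 1 (Bdh1 from LT to IBA) or either LT replicate (the Angptl4 unit from SA to LT). For the list genes the main 16 became 42 with DESeq2, 51 at 0.05, 0 with season as a covariate and 7 to 15 with 1 library left out. They were under 11 without IBA replicate 2 or 3, any ET library or either LT library. Apart from the threshold of 0.05 and, for pairs of states, the scalings, shares over all units are not given for these alternatives. Counts under them, here and below, therefore have no background and are not a result about these genes. The cause of these shifts was not tested.

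With the replicate number as a block, no call of a member changed (Bdh1 from LT to IBA had an adjusted p of 0.00058, the Angptl4 unit 0.00026), and 11 list genes were called. With season as a covariate, the log2 fold changes of Bdh1 and the Angptl4 unit from LT to IBA were 2.38 and -1.19 (adjusted p = 0.0037 and 0.0016). The log2 fold change of Fgf21 from Ent to ET was -2.43 and lay between -2.94 and 0.12 with 1 library left out, turning sign only without Ent replicate 1, and no other sign turned among the 22 fold changes followed through every alternative. Outside those, the Ppara unit changed sign near 0 from IBA to Ent (-0.09), Ent to ET (-0.01) and LT to IBA (-0.02) with other scalings, and from Ent to ET also with DESeq2 and limma-voom (0.01 and 0.03). Season turned signs there too. With season as a covariate, Pdk4 from LT to IBA went from 0.31 to -0.96, and the Ppara unit from -0.02 to 0.75. From Ent to LT the Ppara unit went from 0.10 to -0.09, and to -0.13 within 1 season. Fold changes outside the 22 were not followed with 1 library left out, and some rest on 1 library. For Pdk4 from IBA to Ent (0.95), Ent replicates 1 and 2 had 76.8 and 73.5 CPM, below the IBA mean of 83.2 CPM. For the Creb3l3 unit from Ent to ET (0.06), ET replicates 2 and 3 had 139 and 129 CPM, below the Ent mean of 170 CPM. edgeR with adjusted deviances, chosen after the data were seen, changed no call of a member. Fgf21 in LT rests on 21 and 34 reads, where counting error adds to the spread between animals.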
